A study of Mus musculus with 2 samples.

Results

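The genes described here are the 9 costimulatory and coinhibitory ligands and receptors of antigen-presenting cells formed by the B7 family (Cd80, Cd86, Icosl, Cd274, Pdcd1lg2, Cd276 and Vtcn1), the TNF receptor family member Cd40 and the nectin-like molecule Pvr. All gene probes whose RefSeq accession belongs to one of these genes were taken, which gave 10 probes, 2 of them for Cd80 and 1 for each of the others. They stand among 27234 named probes of 20659 genes on the array.

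The samples were RNA of glomeruli, the filtering units of the kidney, from male mice aged 8 months. One group, labelled Sirpa-/-, had Sirpa knocked out in podocytes, the epithelium of the filter, and the other was wild type (WT). SIRPα, the Sirpa product, is an inhibitory receptor for CD47. Both groups had been injected once in the peritoneum with 0.5 ml of pristane, an oil that induces lupus-like autoimmunity, and were followed for 4 months, so that no group without the disease model was analysed here. The study's title asks whether loss of SIRPα lets podocytes present antigen to T cells. The sources used here give neither the driver of the podocyte deletion nor the number of animals behind each array. The design text names isolated podocytes, while the labels and the extraction protocol name glomeruli, in which the RNA of all glomerular and infiltrating cells is read together.

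A T cell needs a second signal beside the antigen, and the B7 family provides it. CD80 and CD86 on the presenting cell bind CD28, which activates the T cell, and CTLA-4, which restrains it. PD-L1 and PD-L2, the products of Cd274 and Pdcd1lg2, bind PD-1 and restrain it. CD40 receives the signal of CD40 ligand from helper T cells and induces CD80 and CD86 on B cells, macrophages and dendritic cells. In the kidney, B7 molecules have been described on infiltrating leukocytes and, for some members, on epithelial cells.

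The arrays were 1-colour Agilent arrays, with 1 array per group. There is thus no replicate check, no test and no p-value, and each value compares only these 2 arrays. Sirpa had a processed signal of 17315 on the array labelled Sirpa-/- and 11624 on the WT array, 1.56-fold higher on the array whose label names its loss. Where its single probe lies in the gene is unknown, and glomerular cells other than podocytes keep the gene. This probe therefore checks nothing about the label, and whether the labels were exchanged cannot be told. Directions below go by the labels: higher or lower on the array labelled Sirpa-/-. Well above background were 86.7% of gene probes on the array labelled Sirpa-/- and 85.3% on the WT array. Podocyte markers were present, with 12 of 13 listed genes measured on both arrays and signals for synaptopodin (Synpo) of 27275 on the array labelled Sirpa-/- and 29948 on the WT array.

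Values are given as the processed signal, the fluorescence of a spot after background subtraction, with the scanner software's own error estimate, which was at most 13.7% of the signal for the 10 probes. A difference is the log2 signal of the array labelled Sirpa-/- minus that of the WT array, after each array was scaled to its 75th percentile (a signal of 1109 on the array labelled Sirpa-/- and 1158 on the WT array). The error of a difference joins both arrays' software errors and covers neither biological nor labelling variation. For bright probes it was 0.20 whatever the gene, so their 95% intervals, which rest on it, have nearly the same width. A second measure of technical spread is the SD of the difference between single spots of probes that were spotted several times, taken from probes within 2-fold of a member's signal. These spots share the same 2 arrays, so this SD leaves out biological and labelling variation as well. Signals of different probes are not set against each other, since probes bind with different strength. Summed signals of marker lists, given below, carry this limit.

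All 9 genes and all 10 probes were well above background on both arrays, so no member was lost to the filter on dim probes. Their signals were between 11.6 and 3067 times the median of negative control spots on the array labelled Sirpa-/-, and between 11.2 and 2981 times on the WT array. No member differed by 2-fold or more in either direction, against 3.23% of the 18240 genes measured on both arrays. The median difference of the 9 genes was -0.11, beside 0.00 over all measured genes, with 3 members above 0 and 6 below. At 1.5-fold, 2 of the 9 members were lower on the array labelled Sirpa-/- (Cd40 and Pdcd1lg2) and 0 were higher, against 5.27% and 4.35% of all measured genes, and 9.62% in either direction. Less RNA per cell and fewer cells of a type cannot be told apart in such tissue samples.

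**Figure D1:**
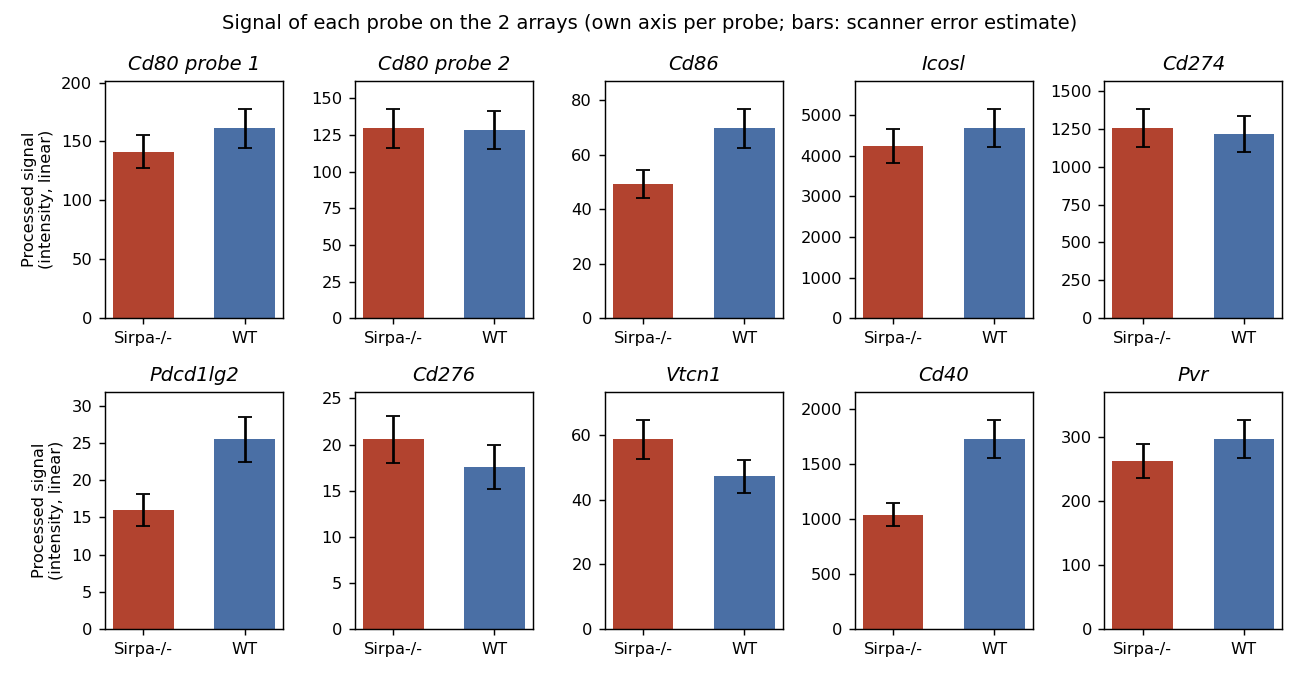
Processed signal (linear intensity, y axes starting at 0, one axis per probe) of the 10 probes on the array labelled Sirpa-/- and the WT array, with 1 array each; bars show the scanner software's error estimate. The error bars of both arrays are clearly apart for Cd40, Cd86 and Pdcd1lg2, which were lower on the array labelled Sirpa-/-; those of Vtcn1 nearly touch and those of the other probes overlap.

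Cd80 and Cd86 encode the ligands of CD28 and CTLA-4. The brighter Cd80 probe had a signal of 141 ± 14.2 on the array labelled Sirpa-/- and 161 ± 16.2 on the WT array. Its difference was -0.13 ± 0.21, smaller than its error. The other Cd80 probe had 129 ± 13.0 on the array labelled Sirpa-/- and 128 ± 12.9 on the WT array, a difference of 0.08 ± 0.21. The 2 probes lay on opposite sides of 0 and neither reached its error, so no direction can be given for Cd80.

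Cd86 had a signal of 49.1 ± 5.08 on the array labelled Sirpa-/- and 69.5 ± 7.10 on the WT array. The difference of -0.44 ± 0.21 (1.36-fold lower) was 2.10 times its software error, with a 95% interval of -0.85 to -0.03. Repeatedly spotted probes of like signal had a median SD of 0.21, and a 95th percentile of SD of 0.52, which the Cd86 difference did not reach. With the background corrected by normexp in place of the scanner's subtraction, the difference was -0.09, a value within its error. That setting also starts from median spot signals and adds an offset of 50, which can shrink log2 differences of dim probes. The dim Cd276 and Vtcn1 still gave 0.23 and 0.35 under it. Background, signal and offset change together there, so it cannot tell whether the Cd86 difference came from the background.

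Icosl encodes the ligand of ICOS, a receptor of activated and follicular helper T cells. Its signal was 4242 ± 424 on the array labelled Sirpa-/- and 4675 ± 468 on the WT array. The difference of -0.08 ± 0.20 lay within its error, with a 95% interval of -0.48 to 0.32. Under the 9 other processing settings the Icosl difference stayed between -0.08 and -0.06.

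Cd274 and Pdcd1lg2 encode the 2 ligands of PD-1 and are neighbours on chromosome 19, with only a long noncoding RNA gene listed as starting between them. Cd274 had a signal of 1252 ± 125 on the array labelled Sirpa-/- and 1216 ± 122 on the WT array. Its difference was 0.10 ± 0.20, within its error. Pdcd1lg2 had 16.0 ± 2.16 on the array labelled Sirpa-/- and 25.5 ± 3.03 on the WT array, a difference of -0.61 ± 0.26 (1.52-fold lower). That difference exceeded its software error 2.35 times, but repeatedly spotted probes of like signal had a median SD of 0.33 and a 95th percentile of SD of 0.98. Of the dimmer measured genes, with a mean signal under 100, 8.93% were at least 1.5-fold lower. The Pdcd1lg2 difference was -0.04 with the normexp background, where the Cd274 difference stayed at 0.10. The normexp setting changes background and spot signal together and adds an offset of 50, above both Pdcd1lg2 signals. Its value therefore cannot tell whether the lower Pdcd1lg2 signal on the array labelled Sirpa-/- came from the background. Whether the PD-1 ligands differed from each other was not tested.

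The 250 bases before the transcript start that RefSeq's promoter table uses for each of these neighbours are shown because both genes answer to inflammatory signals. For Cd274 that start lies inside the gene's full annotated span, which begins further upstream. The sequences are RefSeq's, build GRCm38.p6, plus strand, chr19:29367188-29367437 for Cd274 and chr19:29410669-29410918 for Pdcd1lg2, and capitals mark a match to the κB consensus, the binding motif of NF-κB.
Cd274: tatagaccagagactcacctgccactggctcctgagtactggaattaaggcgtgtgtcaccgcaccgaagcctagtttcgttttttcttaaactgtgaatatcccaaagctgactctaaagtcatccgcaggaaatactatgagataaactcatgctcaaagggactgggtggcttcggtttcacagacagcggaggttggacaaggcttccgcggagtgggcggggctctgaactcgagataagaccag
Pdcd1lg2: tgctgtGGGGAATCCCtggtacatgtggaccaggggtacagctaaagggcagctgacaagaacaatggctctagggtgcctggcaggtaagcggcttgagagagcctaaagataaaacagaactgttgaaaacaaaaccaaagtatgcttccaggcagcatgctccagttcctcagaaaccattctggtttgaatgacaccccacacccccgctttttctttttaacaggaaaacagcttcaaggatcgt

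Both strands were searched, and a stretch that matched on both was counted once. The κB consensus was in the Pdcd1lg2 window, 244 to 235 bases before the start, and in that of Icosl, and in 7.25% of 32851 promoters of the same length. It was not in the windows of Cd274, Cd80, Cd276 and Vtcn1. The interferon response motif GAAANNGAAA, held by 2.98% of promoters, and the STAT motif TTCNNNGAA, held by 7.02%, were in 0 of the 6 member windows given by the table. A match describes letters only and says nothing of binding in these glomeruli.

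Cd276 (B7-H3) and Vtcn1 (B7-H4) are B7 members whose T cell receptors are not settled. Cd276 had a signal of 20.6 ± 2.55 on the array labelled Sirpa-/- and 17.6 ± 2.40 on the WT array, with a difference of 0.29 ± 0.27. Vtcn1, which restrains T cells, had 58.8 ± 6.07 on the array labelled Sirpa-/- and 47.2 ± 5.03 on the WT array. The Vtcn1 difference was 0.38 ± 0.21 (1.30-fold higher), the highest of the 9 members, with a 95% interval of -0.04 to 0.80 that takes in 0. Repeatedly spotted probes had a median SD of 0.33 at the signal of Cd276 and 0.21 at that of Vtcn1. Both differences kept their sign under all 8 settings that left these dim probes in, at 0.23 to 0.29 for Cd276 and 0.35 to 0.38 for Vtcn1.

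Cd40 had the lowest difference of the 9. Its signal was 1042 ± 104 on the array labelled Sirpa-/- and 1728 ± 173 on the WT array. The difference of -0.67 ± 0.20 (1.59-fold lower) was 3.27 times its software error, with a 95% interval of -1.07 to -0.27. Repeatedly spotted probes of like signal had a median SD of 0.05 and a 95th percentile of SD of 0.09. Both lay well under the Cd40 difference, but they hold no biological or labelling variation. Among all measured genes, 4.04% had a difference as low or lower, and of genes with a mean signal of 100 or more, 3.64% were at least 1.5-fold lower. Cd40 stayed between -0.70 and -0.66 under the 9 other settings, normexp background included. A single probe, made to one of several RefSeq transcripts of Cd40, carries this value.

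Pvr (CD155), the ligand of the T cell and NK cell receptors CD226, TIGIT and CD96, had a signal of 263 ± 26.4 on the array labelled Sirpa-/- and 297 ± 29.8 on the WT array. Its difference of -0.11 ± 0.20 lay within its error, with a 95% interval of -0.51 to 0.29.

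**Figure D2:**
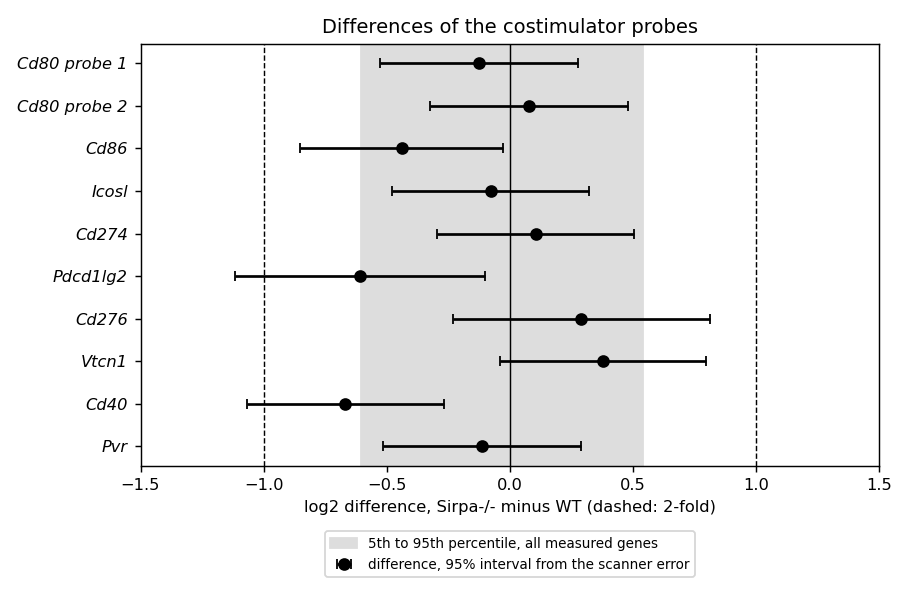
log2 difference, array labelled Sirpa-/- minus WT array, of the 10 probes (x axis; points, with 95% intervals from the scanner error), over the 5th to 95th percentile of all measured genes (grey, -0.60 to 0.54). Cd40 and Pdcd1lg2 lie just past the lower edge of the grey band, the intervals of Cd40, Cd86 and Pdcd1lg2 leave out 0, and no point reaches 2-fold (dashed).

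The receptors of these ligands on T cells and other cells were mostly dim. Of 9 receptors and partners, 5 were measured on both arrays, with a median difference of -0.39, and 0 reached 2-fold. That median is the value of Icos, and it was -0.15 with the mean of a gene's probes or with no filter, and -0.21 with the normexp background. Cd28, the activating receptor of CD80 and CD86, had a signal of 171 on the array labelled Sirpa-/- and 275 on the WT array, a difference of -0.62 ± 0.20. Ctla4, their inhibitory receptor, was well above background on the WT array alone, with 4.22 on the array labelled Sirpa-/- and 10.7 on the WT array. This gives a bound of 1.65-fold lower on the array labelled Sirpa-/-, without an error estimate and from a dim WT signal. This bound compares the scaled WT signal with the scaled detection floor of the other array, the lowest signal there that passed as well above background, or with the probe's own signal where that was higher.

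Icos gave -0.39 ± 0.20 on its brighter probe and 0.34 on its other probe, opposite directions. Cd40lg, the ligand of CD40 on helper T cells, had 21.7 on the array labelled Sirpa-/- and 21.2 on the WT array, a difference of 0.10 ± 0.24, while Cd40 was lower. Of the other partners, Cd96, a receptor of PVR, gave -0.45 ± 0.26, and Rgmb, which binds PD-L2, gave -0.15 ± 0.20. Pdcd1 (PD-1), Cd226 and Tigit were not well above background on either array. For PD-1 and for 2 of the 3 PVR receptors a difference was therefore not detectable with these probes.

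Among other immunoglobulin-type costimulators and checkpoints, 15 of 16 listed genes were measured on both arrays, with a median of -0.16. At 2-fold, 1 gene was higher and 2 were lower, against 1.57% and 1.67% of all measured genes. Btla, an inhibitory receptor of B and T cells that binds HVEM, had 465 on the array labelled Sirpa-/- and 103 on the WT array, 4.71-fold higher. Its partner HVEM (Tnfrsf14) gave 0.02. Vsig4, a macrophage complement receptor that restrains T cells, had 24.6 on the array labelled Sirpa-/- and 55.5 on the WT array, both dim, and was 2.16-fold lower. With the normexp background, or with a signal of at least 100 required, 0 genes of this list were 2-fold lower. Btn2a2, a butyrophilin, was 2-fold lower on its brighter probe and gave 0.76 on the other, so no direction can be given.

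The TNF-family costimulators had a median of -0.01 over 11 genes, with 0 at 2-fold. The largest differences were 0.50 ± 0.30 for Tnfsf8 (CD30 ligand), -0.39 ± 0.20 for Tnfrsf9 (4-1BB) and 0.30 ± 0.22 for Tnfrsf18 (GITR). Tnfrsf9 gave 0.02 on its other probe. Tnfsf8 was dim, with 15.7 on the array labelled Sirpa-/- and 11.6 on the WT array, as was Tnfrsf18, with 37.4 and 31.7. Genes that carry or restrain the signal of CD40, the TRAF adaptors and the noncanonical NF-κB genes, had a median of -0.03 over 12, with 0 at 2-fold in either direction. Within them Birc3, a ubiquitin ligase that works with TRAF2, gave 0.80 ± 0.20, Tnfaip3 (A20), an inhibitor of NF-κB, -0.48 ± 0.20, and Traf5 0.46 ± 0.20. On their other probes, Map3k14 gave 0.62, Traf2 -0.37 and Relb -0.36. Differences in this list thus ran both ways beside the lower Cd40 value.

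The genes known to induce or stabilise PD-L1, among them the interferon gamma receptor chains, Irf1 and Cmtm6, had a median of -0.01 over 10, with 0 at 2-fold. On the brighter probe of each gene, Ifngr1 gave 0.27, the highest of the list, and Stat3 -0.19, the lowest, with 0.02 on its other probe. Other probes ran wider, with 0.35 for Irf1, 0.17 on its brighter probe, and -0.63 for Cmtm4, 0.14 on its brighter probe, so Cmtm4 has no direction. Genes of CD28 and PD-1 signalling in T cells had a median of 0.15 over 15, with 0 at 2-fold. Among them the adaptor Lat gave 0.53 ± 0.22 and the adaptor Gab2 0.44 ± 0.25. Both were dim, with 38.7 and 28.8 on the array labelled Sirpa-/- and 27.9 and 22.2 on the WT array. Vav1 gave 0.15 on its brighter probe and 0.57 on its other probe.

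**Figure D3:**
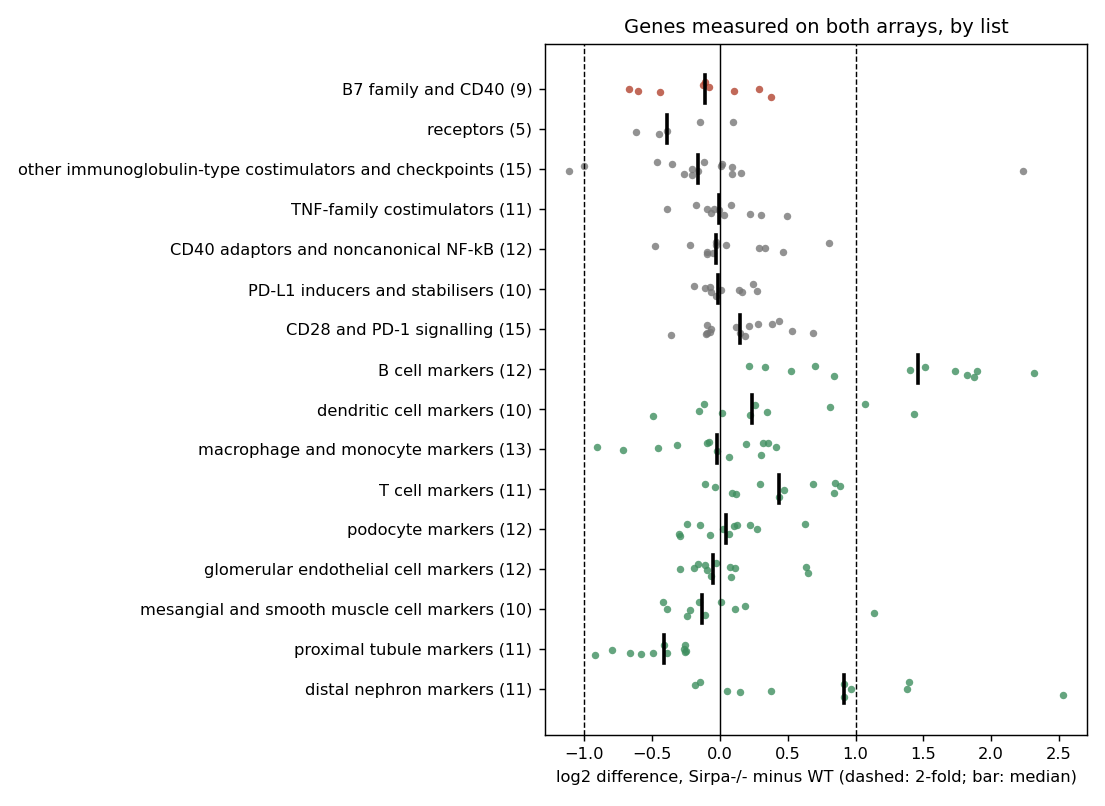
log2 difference, array labelled Sirpa-/- minus WT array, of each gene measured on both arrays (points) and list medians (black bars), for the 9 members (red), pathway lists (grey) and cell type markers (green); the number of genes is in brackets and dashed lines mark 2-fold. The members spread from -0.67 to 0.38, while B cell markers have a median of 1.46.

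Markers of cells known to carry these molecules did not all go one way. Their summed signals are unscaled, add probes of different binding strength and follow the brightest probes, so they size no cell type. All 12 B cell markers were higher on the array labelled Sirpa-/- on their brighter probes, with a median of 1.46. Of them 7 were at least 2-fold higher, against 1.57% of all measured genes. Cr2 (0.22 ± 0.20) and Blk (0.33 ± 0.26) lay close to their errors, and Pax5 gave 0.07 on its other probe. Summed signals were 4481 on the array labelled Sirpa-/- and 1374 on the WT array, of which Cd22 gave 2562 and 536. Cd40, which B cells express, was lower beside these markers. Of 12 dendritic cell markers 10 were measured and had a median of 0.24, with 2 at least 2-fold higher, against the same 1.57%. Their summed signals were 38925 on the array labelled Sirpa-/- and 43244 on the WT array. Siglech alone gave 35783 on the array labelled Sirpa-/- and 40542 on the WT array, so the sum follows that 1 probe. Xcr1, a marker of cross-presenting dendritic cells, was not well above background on either array. Macrophage and monocyte markers had a median of -0.02 over 13 genes, between -0.91 (Adgre1) and 0.42 (Ccr2), and summed signals of 25791 on the array labelled Sirpa-/- and 23609 on the WT array. Mertk and Mrc1 made up most of that sum, with 10627 and 8827 on the array labelled Sirpa-/- and 8909 and 7203 on the WT array.

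The 11 measured T cell markers had a median of 0.43, with 0 at 2-fold and 9 above 0, although the costimulatory receptor Cd28 gave -0.62, and Trat1 was well above background on the WT array alone. Their summed signals were 2810 on the array labelled Sirpa-/- and 2506 on the WT array. The median was 0.04 for 12 podocyte markers, -0.05 for 12 glomerular endothelial markers, -0.13 for 10 mesangial and smooth muscle markers and 0.23 for 5 parietal epithelial markers. It was 0.91 for 11 distal nephron markers, 0.91 for 9 erythroid and platelet markers and 0.36 for 9 neutrophil markers. The 11 proximal tubule markers lay below 0 on their brighter probes, with a median of -0.41, although Cubn gave 0.29 on its other probe, and had summed signals of 22724 on the array labelled Sirpa-/- and 32271 on the WT array. The part of any of these cell types in the Cd40, Cd86 and Pdcd1lg2 values was not tested.

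**Figure D4:**
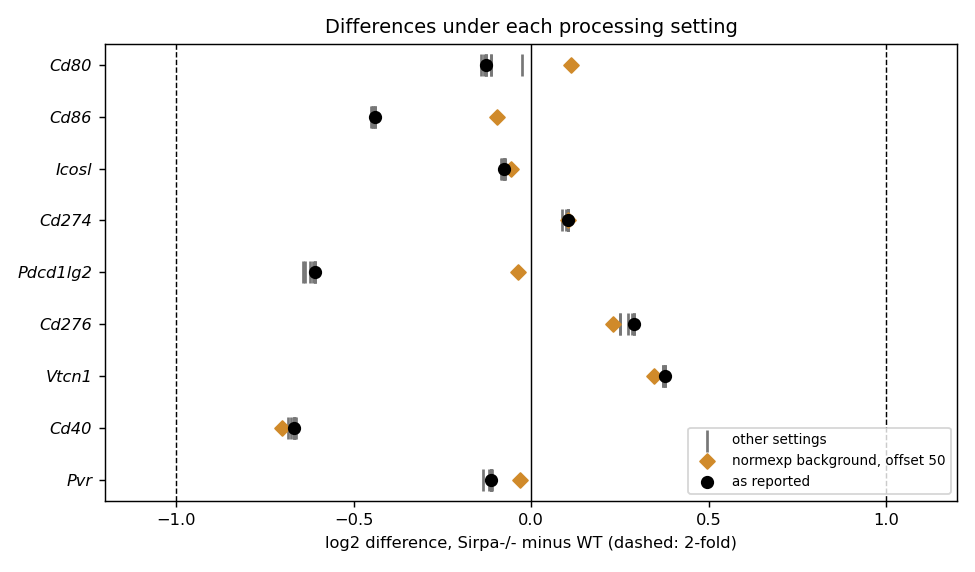
log2 difference, array labelled Sirpa-/- minus WT array, of each member as reported (black), with the normexp background (orange) and under the other settings (grey ticks); dashed lines mark 2-fold. The normexp values of Cd86 (-0.09) and Pdcd1lg2 (-0.04) lie apart from the rest, while those of Cd40 stay together. That of Cd80 (0.11, from its other probe) lies on the opposite side of 0.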

How the data were processed

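RNA of glomeruli was hybridised to 1-colour Agilent arrays, 1 array per group, both on slide 1. Per the file headers, the authors used Agilent Feature Extraction 11.0.1.1 to read the intensity of each spot. The processed intensity had its background subtracted and spatial trends removed, but was not scaled between arrays; the submitters' processing notes name version 9.1. The authors' deposited table holds log2 values of a normalization no source describes, and served as an alternative.

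Here log2 of the processed intensity was taken, spots marked as outliers were left out, the remaining spots of each probe were averaged, and every array had its own 75th percentile (all gene probes) subtracted. A probe was kept if, on each array, over 50% of its spots passed the scanner's flag for signal well above background. Names came from RefSeq accessions without version, in a GRCm38.p6 gene table, which named 27234 probes (69.1%); the array design is on mm9, so that table gave only names and gene order, while promoter windows carry RefSeq's own GRCm38.p6 coordinates. The probe with the highest mean signal stood for a gene. Analyses used Python 3.11.15 and limma 3.58.1 in R 4.3.3, and the scaling was tested on simulated data. No test was possible, so genes were counted at 2-fold, and the number of arrays limits the precision. All probes of the 9 members are named, every receptor, and of each other pathway list the genes at 2-fold and the 3 largest differences; a few genes that this rule names are not reported here. Members, lists and settings were chosen with earlier results of these data known. Alternatives were quantile, median and loess scaling, normexp with an offset of 50 on the median signals, the authors' table, no filter, a signal of at least 100, the mean of a gene's probes, all spots, 1.5-fold and list means.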

Additional observations from a re-analysis of the deposited data

How the results depend on the processing

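No member reached 2-fold under any of the 9 settings of scaling, background, filter, probe choice or outliers, and 8 of the 9 members kept their sign under each setting that gave them a value. With the normexp background, Cd80 turned to 0.11, because its other probe then stood for the gene (its first probe gave -0.03), Cd86 moved to -0.09 and Pdcd1lg2 to -0.04, the member median to -0.031, the receptor median to -0.21, that of the other immunoglobulin-type genes to 0.021 with 0 genes at least 2-fold lower, and that of the TNF-family genes to 0.14. With that background the median of all genes was 0.07, and 1.05% of all genes reached 2-fold, against 3.23% as reported. At least 2-fold lower were 0.433%, against 1.67%. Of the genes at 2-fold, 58.9% were higher, against 48.5% as reported. That setting changes background, spot signal and offset together, so these shifts do not tell whether background made the differences. The dim Cd276 and Vtcn1 moved little, to 0.23 and 0.35. With a signal of at least 100 on both arrays 5 members were left, without Cd86, Pdcd1lg2, Cd276 and Vtcn1. Vsig4 and Btn2a2 were left out as well, so 0 of the other immunoglobulin-type genes were 2-fold lower. With the mean of a gene's probes 1 was, and the receptor median was -0.15. With no filter, which takes in receptors at background level, that median was -0.15, 1 receptor was 2-fold lower and 1 TNF-family gene 2-fold higher, and 6.22% of all genes reached 2-fold, against 3.23%. At 1.5-fold, 2 members and 1 receptor were lower, and 1 gene each of the CD40 and CD28 signalling lists was higher. Means in place of medians were -0.30 for the receptors, -0.087 for the other immunoglobulin-type genes and 0.077 for the CD40 signalling genes. No paired analysis was possible because each group has 1 array. Depth has no counterpart here; dim signals limit Cd86, Pdcd1lg2, Cd276 and Vtcn1.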

Other observations

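The nectins are adhesion molecules of the family to which PVR is related, and 4 were measured on both arrays, each with a difference below 0 on its brighter probe. Nectin2, also a ligand of CD226 and TIGIT, had 5845 on the array labelled Sirpa-/- and 7816 on the WT array, a difference of -0.36 ± 0.20, and -0.04 on its other probe. Nectin1 gave -0.27, Nectin3 -0.16 and Nectin4 -0.12. Vsir (VISTA), a checkpoint ligand and receptor of the B7 family outside the 9 members, had 677 on the array labelled Sirpa-/- and 977 on the WT array, a difference of -0.47 ± 0.20 and -0.23 on its other probe. Lag3 gave -0.21 and Havcr2 (TIM-3) 0.09.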
